A study of Mus musculus with 2 samples.

Results

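The 10 genes described here act in replication licensing and S-phase entry, and they were followed in single cells of mouse embryoid bodies. They are Cdc6, Cdt1, Gmnn, Mcm2, Mcm5, Mcm6, Ccne1, Ccne2, E2f1 and E2f8, 10 of the 33696 gene identifiers counted in each library. They were chosen by symbol for their role, with earlier results of these data known. Each of the 10 symbols had 1 identifier. The embryoid bodies, aggregates in which embryonic stem cells begin to differentiate, came from J1 cells, a male mouse embryonic stem cell line. One library was made after 2 days with dTAG13, a degrader molecule that links a protein carrying the matching FKBP tag to a ubiquitin ligase. The other library was made after 2 days with DMSO, the solvent. The series title names Tex10, a nuclear protein of a complex that acts in ribosome maturation, but no label names the protein that was tagged or says whether the line is 1 clone. Tex10 mRNA was at 64.7 CPM (UMI counts scaled to a common library total) with dTAG13 and 81.3 CPM with DMSO, which is no check of protein loss. Because each group is 1 library, no difference given here has a replicate check and no test was run.

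Licensing is the loading of the MCM helicase onto replication origins, which takes place before S phase. The origin recognition complex, CDC6 and CDT1 load the ring, and geminin binds CDT1 so that origins are not licensed again once S phase has begun. Cyclin E with its kinase, and transcription driven by E2F factors, then carry the cell into DNA synthesis, and mouse embryonic stem cells are known for a short G1 phase and abundant cyclin E.

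Several of these genes are textbook targets of E2F factors, so their promoter sequences were searched for E2F-type words. RefSeq promoter windows on GRCm38.p6, from 250 bases before to 50 bases after each annotated start, were found for 8 of the 10 genes. Gmnn and Ccne2 had no entry. The words searched on both strands were TTTCCCGC, TTTCGCGC, TTTGCCGC and TTTGGCGC. Of the 8 genes with a window, 4 held a word (Cdc6, Cdt1, Mcm5 and Mcm6), and of all 27025 genes with a window, 704 (2.61%) did. The stretches around the matches are shown 5′ to 3′ on the strand of the gene because they let the 4 arrangements be compared. Capitals mark the matched bases, and adjoining or overlapping matches form 1 run of capitals.
Cdc6, chr11:98907973-98908060, plus strand: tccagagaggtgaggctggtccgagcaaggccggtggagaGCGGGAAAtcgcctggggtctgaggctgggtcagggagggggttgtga
Cdt1, chr8:122568007-122568064, plus strand: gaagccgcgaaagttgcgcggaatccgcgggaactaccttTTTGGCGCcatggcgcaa
Mcm5, chr8:75109316-75109407, plus strand: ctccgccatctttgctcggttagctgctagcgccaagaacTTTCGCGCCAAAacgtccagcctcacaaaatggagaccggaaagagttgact
Mcm6, chr1:128359705-128359855, minus strand: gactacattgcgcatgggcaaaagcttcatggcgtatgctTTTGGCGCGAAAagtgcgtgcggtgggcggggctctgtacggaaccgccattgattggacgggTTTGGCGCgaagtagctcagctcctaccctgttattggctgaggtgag

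Cdc6 held 1 word on the opposite strand, at position -138 from the start, and Cdt1 held 1 at position 32, downstream of the start. Mcm5 held 2 words that overlap on opposite strands, the first at position -153. Mcm6 held 3, of which an overlapping pair lies at position -110 and a single word at position -47. The windows of Mcm2, Ccne1, E2f1 and E2f8 held none of the 4 words, which says only that these letters are not in those windows. A match is a description of the sequence and not a measured binding site.

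The dTAG13 library had 11588 cells after filtering and 91808969 UMIs (counts of distinct tagged transcripts), and the DMSO library had 17878 cells and 117189816 UMIs. Median UMIs per cell were 7072.5 in dTAG13 cells and 6014 in DMSO cells, so the dTAG13 cells were deeper, and mitochondrial transcripts made up a median of 1.97% of UMIs in dTAG13 cells and 2.48% in DMSO cells. The libraries shared 64 barcodes, 0.550% of the dTAG13 barcodes. Markers of naive pluripotency summed to 7893 CPM in the dTAG13 library and 9087 CPM in the DMSO library, with none of 14 at 0. In each library 10 of 11 primitive streak and mesoderm markers were under 5 CPM. Both libraries thus retained stem cell markers, and the markers do not settle how far the embryoid bodies had begun to differentiate. Among markers of other cell types, the 14 trophoblast genes summed to 134 CPM in dTAG13 and 182 CPM in DMSO. This sum mixes directions. The keratin genes Krt8 and Krt18 of that list were at 29.9 and 33.0 CPM in dTAG13 and 11.3 and 12.6 CPM in DMSO. The rest of the list together was lower in dTAG13, so the sum gives no order of trophoblast-like cells. The 11 extraembryonic endoderm genes summed to 272 CPM in dTAG13 and 189 CPM in DMSO. The 9 fibroblast feeder genes summed to 88.2 CPM in dTAG13 and 34.9 CPM in DMSO. Of these 9, 4 were at 0 in dTAG13 and 3 in DMSO, and 8 were under 5 CPM in dTAG13 and 7 in DMSO. The feeder sums thus rest on few genes. Sums in dTAG13 and DMSO were 104 and 65.5 CPM for neural ectoderm and 145 and 116 CPM for germ cell markers. They were 26.7 and 9.46 CPM for 2-cell-like and 76.0 and 102 CPM for definitive endoderm markers. Most genes of the extraembryonic endoderm, neural ectoderm, 2-cell-like and definitive endoderm lists were also under 5 CPM in each library. The part of cells of these types in the differences below was not tested. Thinned cells with a keratin UMI were left out in 1 comparison below, which cannot settle the part of keratin-expressing cells.

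All 10 genes had a lower CPM in the dTAG13 library than in the DMSO library, and 5 of them (Cdc6, Gmnn, Ccne1, Ccne2 and E2f8) were at least 1.5-fold lower. Of the 8817 genes that reached 5 CPM in either library, 3498 had a ratio below 1. Of all 8817, 5.4% were at least 1.5-fold lower and 14.2% at least 1.5-fold higher. The median log2 ratio of the 10 genes was -0.59, beside 0.09 over all 8817. Because the 10 genes were chosen with earlier results of these data known, their counts are no independent result. Ratios ran from 0.520 for Ccne1 to 0.942 for Mcm5. The 3 helicase subunits had the highest, from 0.836 to 0.942, while the loaders (0.553 and 0.758) and the E2F genes (0.567 and 0.707) differed within their role. In bulk sums of this kind, fewer cells of a type and less RNA per cell cannot be told apart. Ratios are dTAG13 over DMSO, and all intervals in brackets are exact 95% intervals that cover counting error only.

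The loaders differed in size. Cdc6 (ENSMUSG00000017499), the ATPase that brings the helicase to the origin recognition complex, had 2835 UMIs or 30.9 CPM in dTAG13 and 6543 UMIs or 55.8 CPM in DMSO, a ratio of 0.553 (0.529 to 0.578). Cdt1 (ENSMUSG00000006585), its partner in loading, had 3146 UMIs or 34.3 CPM in dTAG13 and 5299 UMIs or 45.2 CPM in DMSO, a ratio of 0.758 (0.725 to 0.792). The interval of Cdc6 lay wholly past the 1.5-fold limit, and that of Cdt1 wholly short of it.

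Gmnn (ENSMUSG00000006715) encodes geminin, the inhibitor of CDT1. It gave 12884 UMIs or 140 CPM in dTAG13 and 30619 UMIs or 261 CPM in DMSO, a ratio of 0.537 (0.526 to 0.548), the narrowest interval of the 10. The transcript of the licensing inhibitor thus differed more between the libraries than the transcript of its target Cdt1.

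Of the genes followed here, the helicase subunits differed least between the libraries. Each was still lower with dTAG13, with an interval that excludes equality. Mcm2 (ENSMUSG00000002870) was at 55.3 CPM in dTAG13 and 62.1 CPM in DMSO, a ratio of 0.891 (0.860 to 0.924). Mcm5 (ENSMUSG00000005410) was at 60.7 CPM in dTAG13 and 64.5 CPM in DMSO, a ratio of 0.942 (0.909 to 0.975), and Mcm6 (ENSMUSG00000026355) was at 48.0 CPM in dTAG13 and 57.4 CPM in DMSO, a ratio of 0.836 (0.805 to 0.869). Ordered by ratio among the 8817 genes from the lowest, these 3 held ranks 2089, 2730 and 1503, and Ccne1, Gmnn, Cdc6 and E2f8 held ranks 182, 200, 226 and 245.

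Both cyclin E genes, whose products activate CDK2 at S-phase entry, were lower with dTAG13. Ccne1 (ENSMUSG00000002068) had 6621 UMIs or 72.1 CPM in dTAG13 and 16248 UMIs or 139 CPM in DMSO, a ratio of 0.520 (0.505 to 0.535), the lowest of the 10. Ccne2 (ENSMUSG00000028212) had 936 UMIs or 10.2 CPM in dTAG13 and 1927 UMIs or 16.4 CPM in DMSO, a ratio of 0.620 (0.573 to 0.671), an interval that reaches across the 1.5-fold limit.

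Of the E2F genes, E2f1 (ENSMUSG00000027490), an activator of S-phase transcription, had the fewest UMIs of the 10. It had 603 UMIs or 6.57 CPM in dTAG13 and 1088 UMIs or 9.28 CPM in DMSO, a ratio of 0.707 (0.639 to 0.782). E2f8 (ENSMUSG00000046179), an atypical E2F that represses such genes and is itself E2F-driven, had 1377 UMIs in dTAG13, with an interval of 14.2 to 15.8 CPM, and 3101 UMIs in DMSO, with an interval of 25.5 to 27.4 CPM, a ratio of 0.567 (0.532 to 0.604). E2f8 was past the 1.5-fold limit and E2f1 was not, though the interval of E2f1 reaches across that limit. The intervals of E2f8 and E2f1 did not overlap. Of the other E2F genes, named after their values were seen, the atypical E2f7 had a ratio of 1.14 (1.06 to 1.22). The activator E2f2, under 5 CPM in both libraries, had a ratio of 0.509. No contrast between repressors and activators is read from these values.

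**Figure D1:**
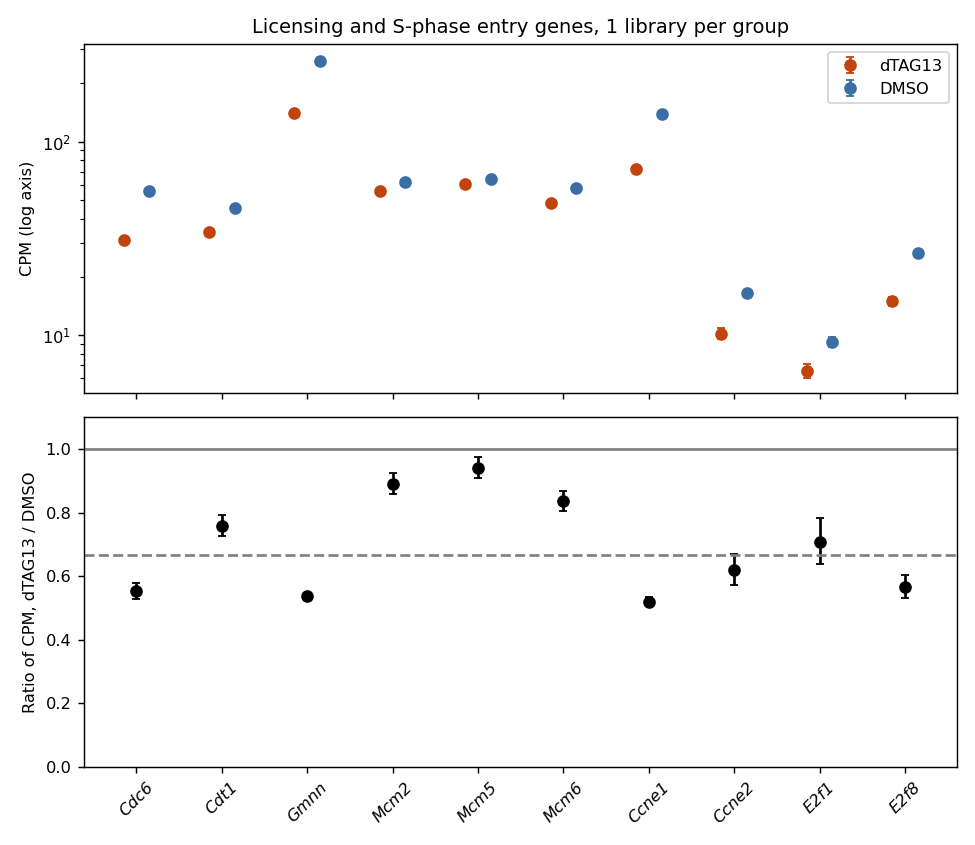
Upper panel, CPM of each gene in the dTAG13 and DMSO libraries on a log axis; lower panel, the ratio of dTAG13 over DMSO, with the solid line at 1 and the dashed line at the 1.5-fold limit. Bars are 95% exact intervals for counting error, 1 library per group; all 10 ratios lie below 1, and Mcm5 at 0.942 is nearest to it.

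Over the 6 lists of related genes, 7 of 108 measured genes (6.48%) were at least 1.5-fold lower, beside 5.4% of all genes, and 10 (9.26%) at least 1.5-fold higher, beside 14.2% of all genes. At the 1.5-fold limit these shares are near or below those of all genes and are no result about the pathway as a whole. At the looser limit of a ratio of 0.8, 30 of the 108 were lower, beside 13.8% of all genes. Of 12 other licensing genes, such as the origin recognition complex and further MCM subunits, 0 passed the limit in either direction, and the median log2 ratio was -0.09. Mcm4, another helicase subunit, was at 102 CPM in dTAG13 and 127 CPM in DMSO (ratio 0.802), while the origin subunits Orc1, Orc2 and Orc3 had ratios of 0.877, 1.246 and 1.15.

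Helicase activation and replisome genes were lower in 2 of 15 and higher in 0 of 15, with a median log2 ratio of -0.25. Mcm10, which helps to activate the loaded helicase, was at 39.2 CPM in dTAG13 and 64.7 CPM in DMSO (ratio 0.606), and Gins2, a subunit of the active helicase, at 46.9 CPM in dTAG13 and 74.3 CPM in DMSO (ratio 0.631). Gins1 and the firing factor Ticrr had ratios of 0.706 and 0.692, short of the limit. DNA synthesis and S-phase repair genes were lower in 3 of 35, with a median log2 ratio of -0.20. Those lower were thymidine kinase Tk1 (32.0 CPM in dTAG13, 61.6 CPM in DMSO), the hemimethylated-DNA binder Uhrf1 (42.6 CPM in dTAG13, 71.5 CPM in DMSO) and the polymerase clamp Pcna (102 CPM in dTAG13, 154 CPM in DMSO).

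Of 18 kinases, cyclins and inhibitors of the G1/S step, 2 were lower and 5 higher, with a median log2 ratio of 0.14. The inhibitors Cdkn1a, a p53 target, and Cdkn2b were at 232 and 22.9 CPM in dTAG13, against 66.9 and 4.68 CPM in DMSO. Fbxw7, a ubiquitin ligase subunit known to target cyclin E protein, was at 93.2 CPM in dTAG13 and 37.1 CPM in DMSO, and the D-type cyclin Ccnd3 at 20.04 CPM in dTAG13 and 38.9 CPM in DMSO. The others past the limit, named after their values were seen, were the kinase gene Cdk6 (5.86 CPM in dTAG13, 9.89 CPM in DMSO), the cyclin gene Ccnd2 (9.19 CPM in dTAG13, 3.97 CPM in DMSO) and the inhibitor Cdkn1c (40.3 CPM in dTAG13, 21.8 CPM in DMSO).

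Among 15 other E2F, RB and DREAM genes, 0 were lower and 2 higher, with a median log2 ratio of -0.09. The retinoblastoma gene Rb1, which restrains E2F, was at 42.3 CPM in dTAG13 and 8.99 CPM in DMSO, a ratio of 4.70 (4.39 to 5.04). Its relative Rbl2, named after its values were seen, was at 8.496 CPM in dTAG13 and 3.61 CPM in DMSO. The activator E2f3 and the late cell cycle factor Mybl2 had ratios of 0.747 and 0.751, and the DREAM subunit Lin37 had 0.768. Of 13 genes for CDT1 and geminin turnover, 0 were lower and 2 higher, namely the ligase scaffold Cul4a (26.3 CPM in dTAG13, 16.5 CPM in DMSO) and the anaphase activator Cdc20 (159 CPM in dTAG13, 105 CPM in DMSO). Cul4b and the CDT1 receptor Dtl had ratios of 1.47 and 0.771. The 44 mitotic genes had 0 lower and 1 higher, the spindle gene Hmmr (249 CPM in dTAG13, 147 CPM in DMSO, named after its values were seen), with a median log2 ratio of 0.09 like that of all genes.

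To compare cells at equal depth, each cell was thinned to 4000 UMIs, which left 10720 dTAG13 cells and 15908 DMSO cells and dropped 868 dTAG13 and 1970 DMSO cells as too shallow. A dTAG13 cell then held a UMI of 1.55 ± 1.26 of the 10 genes (mean ± SD over cells) and a DMSO cell of 2.23 ± 1.29. None of the 10 was detected in 21.9% (21.2 to 22.7) of dTAG13 cells and 7.14% (6.75 to 7.55) of DMSO cells. At least 5 were detected in 2.30% of dTAG13 cells and 4.92% of DMSO cells. The distributions overlap widely, with the widest gap in share among cells that had no UMI of the 10 genes.

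**Figure D2:**
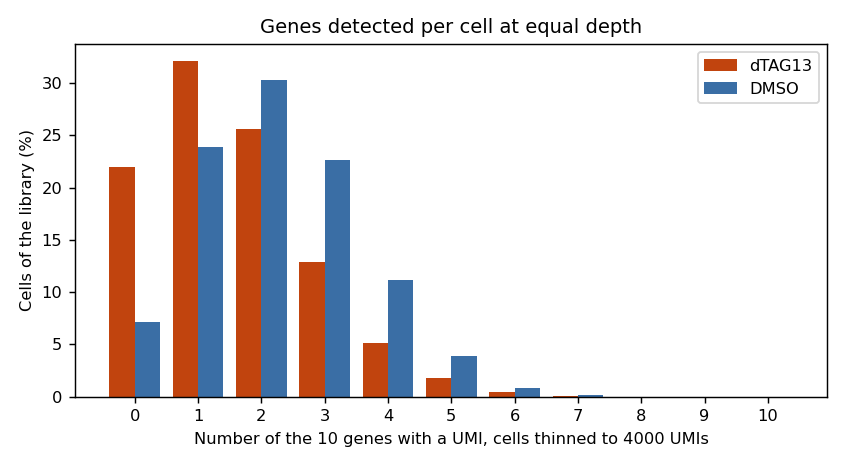
Share of cells of each library (%) by the number of the 10 genes with a UMI, in cells thinned to 4000 UMIs, 1 library per group. Cells with 0 of the genes make up 21.9% of dTAG13 and 7.14% of DMSO cells, and the dTAG13 distribution is shifted to lower numbers.

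Gmnn was detected most widely, in 40.5% of dTAG13 cells and 64.1% of DMSO cells after thinning (unthinned, 58.2% of dTAG13 and 76.9% of DMSO cells). It had 2 or more UMIs in 11.8% of dTAG13 cells and 29.0% of DMSO cells, and a mean of 1.38 UMIs in dTAG13 cells with any and 1.66 in such DMSO cells. Ccne1 was detected in 22.8% of dTAG13 cells and 40.1% of DMSO cells (unthinned, 35.5% of dTAG13 and 52.5% of DMSO cells). Cdc6 was detected in 10.9% of dTAG13 cells and 19.4% of DMSO cells (unthinned, 19.0% of dTAG13 and 28.2% of DMSO cells).

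The helicase subunits were again a little lower with dTAG13. Mcm2 was detected in 19.3% of dTAG13 and 21.4% of DMSO cells, Mcm5 in 20.4% of dTAG13 and 22.4% of DMSO cells, and Mcm6 in 16.9% of dTAG13 and 20.2% of DMSO cells. Without thinning, the shares of Mcm2 (33.0% of dTAG13, 31.6% of DMSO cells) and Mcm5 (33.9% of dTAG13, 32.5% of DMSO cells) were higher in the deeper dTAG13 library, against their CPM, so no order is read from these. For Mcm6 the unthinned shares were 29.3% of dTAG13 and 29.9% of DMSO cells. The rarer genes were detected in few cells after thinning. Cdt1 was found in 11.8% of dTAG13 and 15.5% of DMSO cells, E2f8 in 5.62% of dTAG13 and 9.83% of DMSO cells, Ccne2 in 3.87% of dTAG13 and 6.33% of DMSO cells, and E2f1 in 2.71% of dTAG13 and 3.48% of DMSO cells. Their unthinned shares were 21.9% of dTAG13 and 23.9% of DMSO cells for Cdt1, 10.3% of dTAG13 and 14.9% of DMSO cells for E2f8, 6.96% of dTAG13 and 9.51% of DMSO cells for Ccne2, and 4.99% of dTAG13 and 5.73% of DMSO cells for E2f1. No cell type that should lack these genes was defined in these cycling cells, so the background share due to free RNA was not measured.

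Some of the genes were found together in the same cells in both libraries. After thinning, Cdc6 had a UMI in 25.8% (21.6 to 30.3) of dTAG13 cells with Ccne2 and 10.3% (9.76 to 10.95) of those without, and in 28.3% (25.5 to 31.2) of DMSO cells with Ccne2 and 18.8% (18.2 to 19.5) of those without. Ccne1 had a UMI in 39.9% of dTAG13 cells with E2f8 and 21.8% of those without, and in 50.5% of DMSO cells with E2f8 and 38.9% of those without. For Cdt1 and its inhibitor Gmnn the shares lay closer. Cdt1 was found in 13.4% (12.4 to 14.5) of dTAG13 cells with Gmnn and 10.7% (9.97 to 11.5) without. In DMSO it was found in 15.5% of cells both with and without Gmnn. Mcm2 was found in 20.2% (18.6 to 22.0) of dTAG13 cells with Mcm5 and 19.0% (18.2 to 19.9) without. In DMSO it was found in 23.5% (22.1 to 24.9) of cells with Mcm5 and 20.8% (20.1 to 21.5) without. Whether the libraries differ in these associations was not tested.

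The thinned cells were next sorted into bins by UMIs of gene lists that hold none of the 10 genes, with limits set on both libraries together. The libraries fill the bins unequally. The lowest DNA synthesis bin held 37.4% of dTAG13 and 14.7% of DMSO cells, the lowest and highest mitotic bins held 30.9% and 32.4% of dTAG13 and 17.7% and 20.9% of DMSO cells, and the highest p53 target bin held 59.8% of dTAG13 and 4.18% of DMSO cells. Over the 120 gene and bin combinations of these 3 lists, 104 ratios were below 1. The 3 lists sort the same cells, so the combinations are not independent. No share over all genes was computed within bins. The DNA synthesis and p53 lists themselves differ between the libraries, so a bin may hold unlike cells.

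Across mitotic bins, 38 of 40 ratios were below 1, of which 29 had an interval below 1 and 0 an interval above it. Summed over the 10 genes the ratio was 0.541, 0.779, 0.665 and 0.651 from the lowest to the highest bin. Ccne1 stood at 85.0, 115, 67.9 and 46.9 CPM across these bins in dTAG13 cells, against 146, 151, 141 and 126 CPM in DMSO cells. In dTAG13 its level was highest in the second bin, while in DMSO the interval of that bin overlaps those of its neighbours on both sides. The ratios of Ccne1 lay between 0.762 in that bin and 0.373 in the highest. Gmnn had 95.5, 167, 158 and 156 CPM in dTAG13 cells, against 267, 281, 265 and 239 CPM in DMSO cells, so its ratio was lowest, at 0.357, where mitotic UMIs were fewest. Mcm5 had ratios of 0.809, 1.06, 0.985 and 0.939, of which the interval was below 1 in the lowest bin alone.

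**Figure D3:**
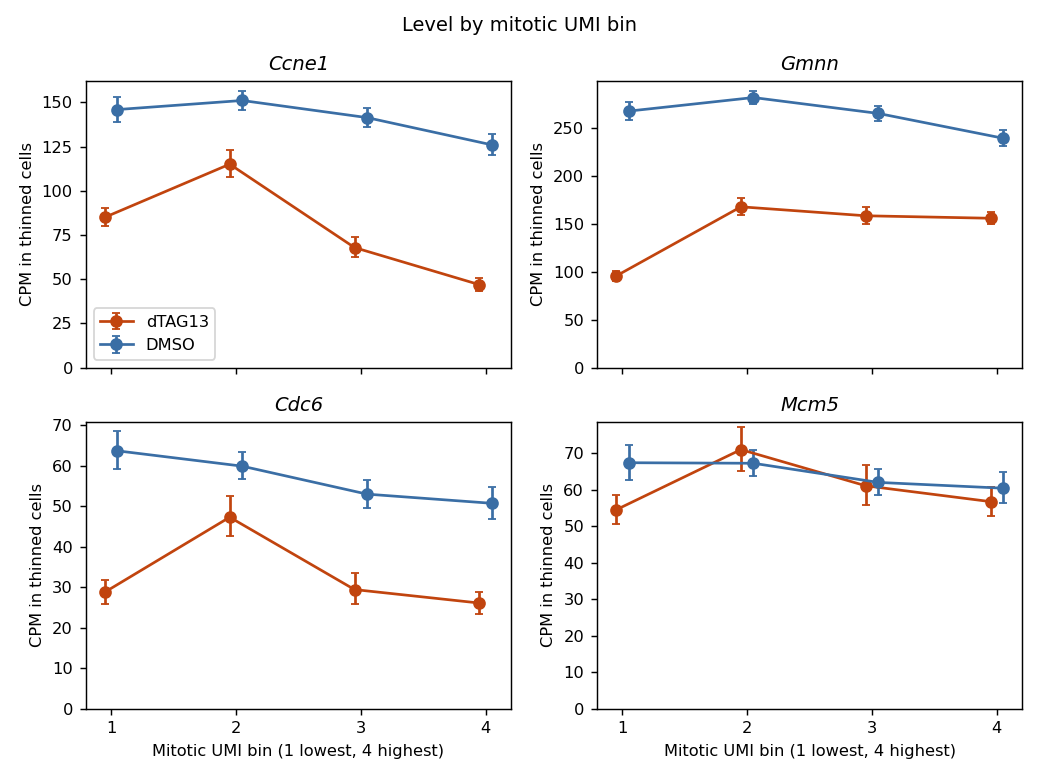
CPM of Ccne1, Gmnn, Cdc6 and Mcm5 in thinned dTAG13 and DMSO cells by bin of mitotic list UMIs, from 1 (lowest) to 4 (highest); bars are 95% exact intervals for counting error. Ccne1, Gmnn and Cdc6 are lower in dTAG13 in all 4 bins, while the Mcm5 intervals overlap in 3 of the 4.

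With more DNA synthesis UMIs the libraries came closer. The summed ratio was 0.525, 0.679, 0.754 and 0.838 from the lowest to the highest bin, and Cdc6 had 14.0, 27.3, 41.6 and 62.5 CPM in dTAG13 cells, against 40.5, 44.9, 57.3 and 73.3 CPM in DMSO cells. In the highest bin, Cdt1 (0.987), Mcm2 (0.974), Mcm6 (1.06), Ccne2 (0.938) and E2f8 (0.881) had intervals that include 1, and the ratios of Mcm5 (1.14, 1.04 to 1.255) and E2f1 (1.37, 1.06 to 1.77) were above 1. Gmnn remained the lowest there, with 195 CPM in dTAG13 cells and 292 CPM in DMSO cells, a ratio of 0.667 (0.630 to 0.706).

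By p53 target UMIs the summed ratios were 0.850, 0.856, 0.715 and 0.652 from the lowest to the highest bin, lower in the upper pair of bins. Gmnn had 182, 185, 149 and 127 CPM in dTAG13 cells, against 273, 265, 259 and 238 CPM in DMSO cells. Its 4 ratios of 0.668, 0.701, 0.577 and 0.536 all had intervals below 1. E2f8 had 33.9, 24.6, 17.05 and 12.1 CPM in dTAG13 cells, against 28.1, 28.9, 23.0 and 24.4 CPM in DMSO cells, and its interval was below 1 in the upper pair of bins. The lowest bin rests on 192 dTAG13 cells and the highest on 665 DMSO cells.

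The make-up of the libraries by bin was then equalised, by weighting the dTAG13 bins to their DMSO shares. With mitotic bins, 10 of 10 ratios remained below 1, Ccne1 at 0.578, Gmnn at 0.564 and Cdc6 at 0.609. With DNA synthesis bins, Mcm5 was at 1.04 and the other 9 were below 1, with Gmnn at 0.601 and Ccne1 at 0.647 past the 1.5-fold limit, and Cdc6 at 0.714, E2f8 at 0.739 and Ccne2 at 0.816 short of it. With p53 bins, Gmnn was at 0.653, Ccne1 at 0.792 and Cdc6 at 0.801, while E2f8 was at 0.951, Ccne2 at 1.05 and E2f1 at 1.23. That weighting gives the 192 dTAG13 cells of the lowest bin 36.7% of the weight. The keratin genes Krt8 and Krt18 were higher with dTAG13 (29.9 and 33.0 CPM in dTAG13, 11.3 and 12.6 CPM in DMSO). In thinned cells with no UMI of either, the ratio was 0.537 for Gmnn, 0.535 for Ccne1 and 0.563 for Cdc6. Over all thinned cells these genes had ratios of 0.527, 0.527 and 0.5535. This step kept 89.9% of thinned dTAG13 cells. Cells that express keratins can lack a UMI of them at this depth, so their part remains untested.

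**Figure D4:**
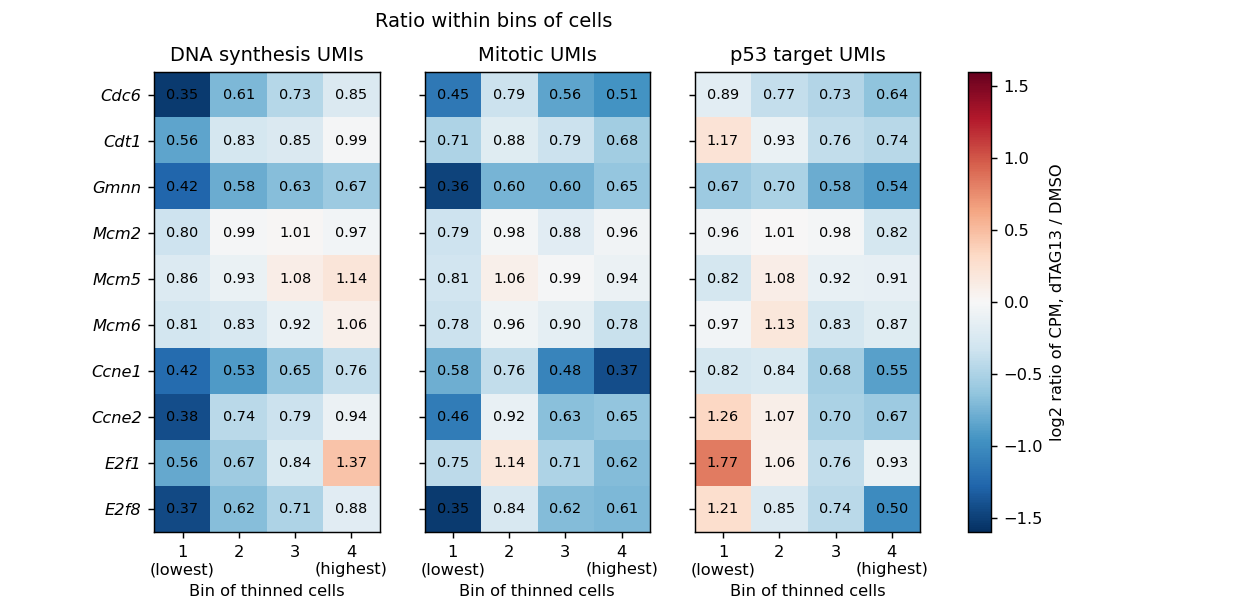
Ratio of CPM, dTAG13 over DMSO, of each gene in bins of thinned cells by UMIs of DNA synthesis, mitotic and p53 target lists; colour is the log2 ratio and the printed number the ratio. Gmnn is below 1 in all 12 bins, and the ratios of most genes approach 1 toward the highest DNA synthesis bin.

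Clustering without the 10 genes, the pathway lists or the mitotic genes gave 14 clusters, named here by number. Most were largely of 1 library and may be that library rather than a kind of cell, and 7 had at least 100 cells of each. Among dTAG13 cells the 10 genes summed to the lowest level, 308 CPM, in cluster 0, which was led by Krt18, Hand1 and Krt19 and held 1671 dTAG13 and 85 DMSO cells. Cluster 1, led by Ms4a10 and Eps8l2 with 1791 dTAG13 and 97 DMSO cells, followed at 356 CPM. In cluster 0, Gmnn was at 96.1 CPM, Ccne1 at 45.9 CPM and E2f8 at 6.54 CPM, and these clusters had too few DMSO cells for a ratio.

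Within the 7 clusters held by both libraries the summed ratio ran from 0.732 to 1.05, and 4 of them had an interval below 1. It was 0.732 in cluster 2 (led by Neb and Ms4a10), 0.740 in cluster 4 (Ebf1, Sox11) and 0.780 in cluster 5 (histone genes), which hold most of the dTAG13 cells of the 7. It was 0.918 (0.859 to 0.980) in cluster 10 (Rhox9, Rhox6), and 1.01, 0.981 and 1.05 in clusters 7, 9 and 11, each with 100 to 122 dTAG13 cells. The dTAG13 cells of cluster 7 had a median of 2726 UMIs. In dTAG13 cells the p53 target list summed to 3438 to 3881 CPM in clusters 7, 9, 10 and 11. It summed to 5221 to 5377 CPM in clusters 2, 4 and 5. In DMSO cells these sums were 2698 to 3103 CPM and 3234 to 3915 CPM. The p53 list was not held out of the clustering, and its part in these ratios was not tested.

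Gmnn and E2f8 were below 1 in 7 of 7 clusters, and no share over all genes was computed within clusters. Gmnn ratios ran from 0.638 in cluster 2 to 0.847 in cluster 9, and its levels ran from 84.0 CPM (cluster 1) to 250 CPM (cluster 9) over 10 dTAG13 cluster groups and from 218 CPM (cluster 2) to 296 CPM (cluster 9) over 9 DMSO groups. In DMSO the highest Gmnn group did not overlap the next, cluster 6 at 277 CPM, by their intervals, while the lowest did overlap its neighbour. E2f8 ratios ran from 0.625 to 0.980, but rest on as few as 8 dTAG13 UMIs in cluster 7. Ccne1 was below 1 in 4 of 7 clusters, with 66.8 CPM in dTAG13 and 102 CPM in DMSO cells of cluster 2 and 138 CPM in dTAG13 and 113 CPM in DMSO cells of cluster 11. Cdc6 was below 1 in 4 of 7 (0.599 to 1.23), Cdt1 and Mcm2 in 5, Mcm6 and Ccne2 in 3, and Mcm5 and E2f1 in 2.

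**Figure D5:**
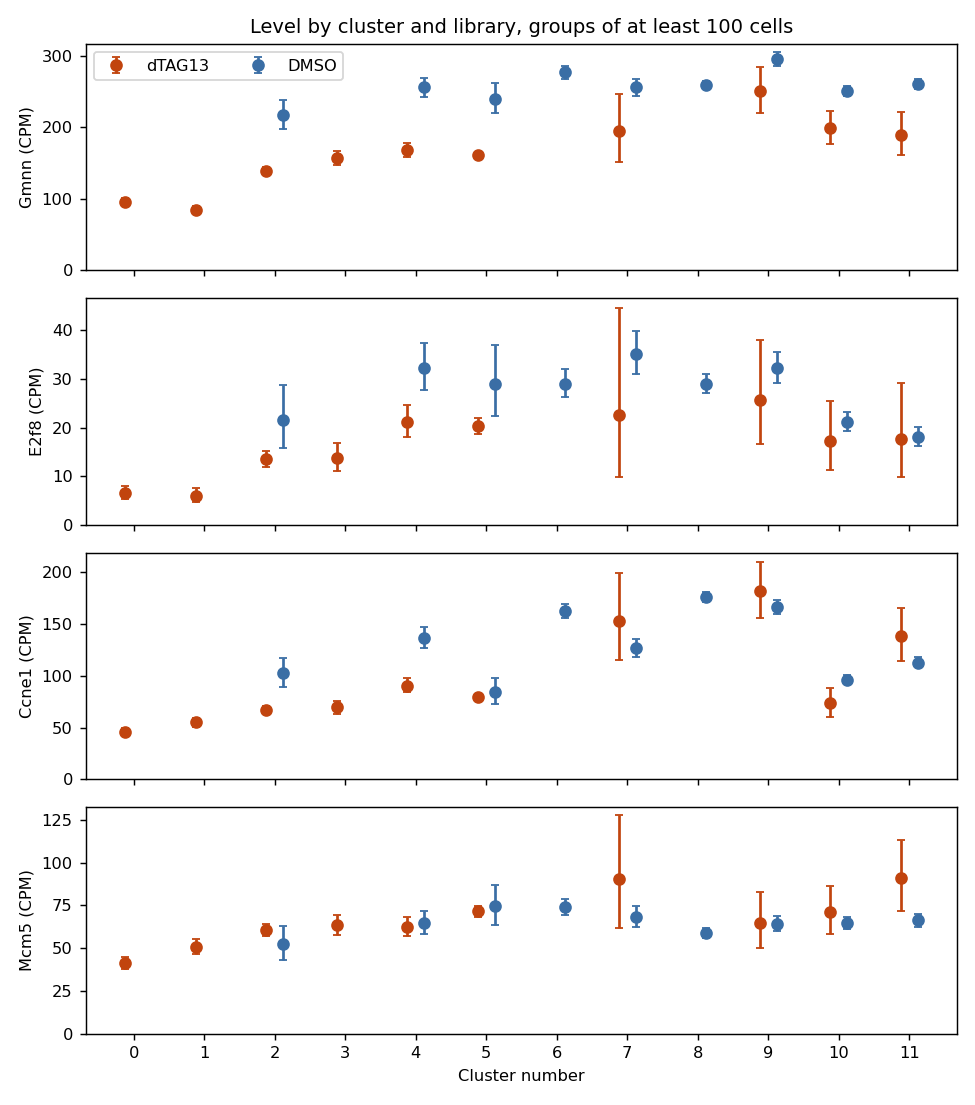
CPM of Gmnn, E2f8, Ccne1 and Mcm5 by cluster in dTAG13 and DMSO cells, for cluster groups with at least 100 cells; bars are 95% exact intervals for counting error. Gmnn is lower in dTAG13 in all 7 clusters with both libraries, from 0.638 to 0.847 of DMSO, while Mcm5 is lower in 2 of the 7.

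The 19 cluster-by-library groups also gave the genes whose levels ran most like the 10. By Pearson r of log2(CPM + 1) with their mean standardised profile, among 4997 other genes, the closest were the polymerase clamp Pcna (0.966), the chromatin ATPase gene Atad2 (0.9503), the polymerase delta subunit Pold3 (0.942), the checkpoint mediator Clspn (0.939) and the folate enzyme gene Shmt1 (0.937). Of the 10 genes, Cdc6 ran closest to the mean of the other 9 (r = 0.944) and Mcm5 least close (0.744). These groups share 2 libraries, so the values describe these cells only.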

How the data were processed

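Single-cell libraries were made with a 10x Chromium 3′ kit, per the labels' protocols. The deposited values are whole-number UMI counts per gene and barcode, and the file headers name Cell Ranger 8.0.1. Seurat 5.0.1, R 4.3.2 and mm10 appear, with no role, in the submitters' processing notes. The barcode filter and the annotation are not given in the sources used here.

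Kept cells had 500 or more detected genes and no more than 10% of UMIs from mitochondrial genes. No doublets were removed and no doublet caller was run. UMIs were summed per library and divided by its total (CPM). CPM intervals are exact Poisson, ratio intervals exact conditional binomial, and shares of cells exact Clopper-Pearson, at 95% and for counting error only. Cells were thinned without replacement to 4000 UMIs. Bins are quartiles of pooled thinned cells, and ties make them unequal. Clusters used 1980 variable genes (scanpy 1.11.5, leidenalg 0.10.2, resolution 1) with no integration, in Python 3.11.15 with numpy 2.4.6 and scipy 1.17.1. Levels are not compared between genes, since 3′ counts depend on each transcript's end.

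The 10 genes and all lists were chosen with earlier results of these data known. All 10 are named. From each of the 6 pathway lists, up to 4 genes with the largest absolute log2 ratio and at least 10 CPM are named, and the 5 genes most alike across cluster groups. One result that this rule selects is not reported here. Alternatives changed the scaling, the total, the cell filter, the thinning depth, the bins, the fold or CPM limit and the cluster resolution. Weighting of bins and leaving out keratin-bearing cells were added after seeing the data. The ratio and interval step was tested on simulated data.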

Additional observations from a re-analysis of the deposited data

How the results depend on the processing

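Under the 6 planned scaling and cell choices all 10 ratios stayed below 1, with Gmnn between 0.483 and 0.538, Ccne1 between 0.468 and 0.527 and Mcm5 between 0.847 and 0.944. Median-of-ratios scaling multiplied every ratio by a common factor. It moved the median log2 ratio of all genes to -0.06, against 0.09, and the median of the 10 genes to -0.75, against -0.59. The number of pathway genes at least 1.5-fold lower became 19, against 7. The share of all genes past the limit was not computed under that scaling, so the 19 are no result about the pathway. E2f1 passed the 1.5-fold limit only under that scaling, at 0.636. With the limit relaxed to a ratio of 0.8, 30 of 108 pathway genes and 7 of the 10 were lower, beside 13.8% of all genes. The difference in mean genes detected per cell, dTAG13 minus DMSO, was -0.43 at 2000 UMIs and -0.63 at 6000 UMIs, against -0.68 at 4000; deeper thinning keeps fewer cells and shallower thinning detects fewer genes. With p53 bins weighted as in DMSO, the Ccne2 ratio was 1.05. With clusters at resolution 0.5, the median log2 ratio of the summed genes within clusters was -0.40, against -0.12 at resolution 1. Apart from the scaling, the causes of these shifts were not tested. With bins set within each library, 112 of 120 ratios were below 1, against 104. Such bins do not pair cells of like level. The lowest p53 target bin then covered 3 to 16 UMIs in dTAG13 cells and 0 to 7 in DMSO cells. The higher count therefore adds no support. No paired analysis was possible because each group has 1 library. Depth limits E2f1 and Ccne2 most.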
